A study of Mus musculus with 18 samples.

Results

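The 8 genes described here make nitric oxide, supply or compete for its substrate arginine, or make and carry itaconate. They were taken by symbol from a table of 54532 genes: Nos2, Gch1, Ass1, Slc7a2, Arg1, Arg2, Acod1 and Slc13a3. All 8 matched 1 row each and all 8 were among the 13267 genes that passed the filter on low counts. The set was chosen by pathway with measured values in view, the counts and fold changes of all 6 groups, and Nos2, Slc13a3, Acod1 and Arg1 had already been named among the changed genes. Their changes are therefore given as log2 values with standard errors (SE) and with whether they passed the threshold used for all genes, without p-values, and support nothing by themselves.

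Nitric oxide is made from arginine by nitric oxide synthases. The inducible enzyme NOS2 is a classical product of activated rodent macrophages and microglia and needs the cofactor tetrahydrobiopterin. Arginases split the same arginine into ornithine and urea. Itaconate is made from cis-aconitate, an intermediate of the tricarboxylic acid cycle, and accumulates in activated macrophages.

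RNA was sequenced from primary microglia, the brain's own macrophages, isolated from mouse pups of postnatal days 0 to 3 after 10 days of mixed culture. The R47H/+ groups had the labelled genotype hTrem2 R47H/+, and the other genotype was labelled mTrem2 +/+ and is called Trem2+/+ here. R47H is a variant of the lipid receptor TREM2 that is linked to Alzheimer's disease. The 6 groups of 3 libraries were R47H/+ with MK-2206 and tau, R47H/+ with tau, R47H/+ with MK-2206, R47H/+ alone, Trem2+/+ with tau and Trem2+/+ alone. Tau was 1 ug/ml of 0N4R fibrils, and the Akt inhibitor MK-2206 was given at 1 uM. Every culture had a pre-treatment of 6 h before the tau step, with 0.01% DMSO in the 4 groups without the inhibitor. MK-2206 was not tested in Trem2+/+ cells, and the labels do not say how long tau was present, how many animals were pooled or whether the replicates were separate cultures. The p-values and SEs below therefore measure the spread between these libraries, which may be technical.

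Library totals lay between 16288531 and 20686299 counts. In Trem2+/+ replicate 3 and R47H/+ with tau replicate 2, counts of long genes lay below the group median. Log2 CPM (CPM, counts scaled to library size) fell off at a slope of -1.27 in the first and -0.60 in the second for each log10 unit of length, and the remaining 16 libraries had slopes between -0.10 and 0.19. The mouse gene Trem2 had 451 to 489 CPM in R47H/+ libraries and 935 to 1894 CPM in Trem2+/+ libraries without treatment. The 1894 CPM was in Trem2+/+ replicate 3, and replicates 1 and 2 had 945 and 935 CPM. How reads of the allele labelled hTrem2 were counted on the mouse genome was not tested. Trem2 fell with tau in all 3 backgrounds (log2 change -1.62 to -1.41). The macrophage gene Csf1r averaged at least 1912 CPM in every group, but Siglech, a microglial marker, had at most 0.111 CPM and was at 0 in 2 groups, and Tmem119 averaged 0.64 to 1.57 CPM. The summed level of 8 astrocyte markers lay between 54.1 and 107 CPM over all libraries. Of 6 markers of the oligodendrocyte lineage, summed at 64.6 to 175 CPM, 3, 4 and 3 were called lower and 0 higher with tau in R47H/+ cells with MK-2206, R47H/+ cells and Trem2+/+ cells; the myelin gene Mbp averaged 72.7, 57.7 and 86.4 CPM with tau and 114, 100.04 and 122 CPM without. The 8 markers of border macrophages, monocytes and granulocytes were summed at 394 to 561 CPM. S100a9 and Ly6g were at 0 in every group, and Lyve1 had 1 count, in R47H/+ cells with tau. Of the 4 tested, 3, 2 and 2 were called higher and 1, 2 and 1 lower with tau in the same order. The macrophage gene Mrc1, the most abundant, averaged 285, 195 and 334 CPM with tau and 522, 462 and 477 CPM without. The monocyte gene Ly6c2 averaged 119, 177 and 146 CPM in the 3 groups with tau and 4.01, 12.3 and 4.66 CPM in their counterparts without it. With tau, in the same order, 3, 2 and 1 of the 6 astrocyte markers tested were called higher and 2, 1 and 1 lower. For the 9 microglial markers tested, 4, 3 and 3 were called higher and 1, 4 and 2 lower. Over all genes tested, 14.3%, 15% and 14.4% were called higher and 11.3%, 12.6% and 12.1% lower with tau. With MK-2206 against none in R47H/+ cells, 0 microglial markers were called higher and 4 lower without tau, and 0 either way with tau. Over all genes, 1.19% were called higher and 1.36% lower without tau, and 1.64% and 1.4% with it. For R47H/+ against Trem2+/+ cells, 4 microglial markers were called higher and 1 lower without tau, and 2 and 1 with tau. Over all genes these shares were 8.22% and 6.83% without tau, and 5.25% and 4.24% with it. The part of other cells in the results below was not tested; in bulk RNA, fewer cells of a type and less RNA per cell cannot be told apart.

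The stretches before the gene start of 3 members that were higher with tau are shown from RefSeq (GRCm38.p6), on the strand of the gene, up to the last base before the deposited gene. The table matched 4 of the 8 members, these 3 and Ass1. Acod1 (chr14:103046762-103046976, plus strand) and Gch1 (chr14:47189414-47189663, minus strand) are shown because their windows held motif matches, in capitals. Slc13a3 (chr2:165473231-165473447, minus strand), which had the largest tau change of the 8 in each background (in Trem2+/+ cells, Nos2 had a larger one without Trem2+/+ replicate 2), is shown because its window held none.
Acod1: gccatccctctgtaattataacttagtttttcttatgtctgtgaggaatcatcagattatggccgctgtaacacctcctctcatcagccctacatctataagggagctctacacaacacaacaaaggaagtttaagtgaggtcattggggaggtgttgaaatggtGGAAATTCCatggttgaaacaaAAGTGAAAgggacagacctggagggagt
Gch1: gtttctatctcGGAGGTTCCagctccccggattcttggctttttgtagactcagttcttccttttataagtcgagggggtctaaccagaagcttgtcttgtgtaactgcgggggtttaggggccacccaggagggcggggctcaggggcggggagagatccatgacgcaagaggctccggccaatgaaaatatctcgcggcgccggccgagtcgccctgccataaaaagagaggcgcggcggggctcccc
Slc13a3: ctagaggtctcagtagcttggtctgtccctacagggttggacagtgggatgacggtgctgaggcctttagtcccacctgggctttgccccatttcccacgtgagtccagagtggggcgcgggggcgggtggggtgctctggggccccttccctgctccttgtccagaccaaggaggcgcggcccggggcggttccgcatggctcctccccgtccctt
The 250 bases before each RefSeq start were searched on both strands for 5 motifs chosen after the sequences had been seen. The Acod1 window held GGAAATTCC at positions -85 to -77, a match to the kB-type core GGANNNTCC, which was found in 7.27% of 32851 windows. It also held AAGTGAAA at -63 to -56, a match to the IRF-type core AANNGAAA, found in 21.3% of windows. Gch1 held GGAGGTTCC at -239 to -231, again a kB-type core. None of the 3 motifs GAS (TTCNNNGAA), C/EBP (TTGCNNAA) and AP-1 (TGANTCA), found in 7.02%, 9.56% and 6.75% of windows, had a match in the 4 windows, and Ass1 and Slc13a3 had no match to any of the 5. A match is a description of letters and not of binding.

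With tau, Nos2, Gch1, Ass1, Acod1 and Slc13a3 were higher and Arg1 was lower in R47H/+ cells with MK-2206, in R47H/+ cells and in Trem2+/+ cells. In R47H/+ cells with MK-2206, 5 of the 8 genes were called higher and 1 lower, where 25.6% of all genes tested were called, 14.3% higher and 11.3% lower. In R47H/+ cells 6 were called higher and 1 lower, where 27.6% of all genes were called, 15% higher and 12.6% lower. In Trem2+/+ cells 5 were called higher and 1 lower, where 26.5% of genes were called, 14.4% higher and 12.1% lower. A call is an adjusted p below 0.05 in edgeR's quasi-likelihood test over all genes. The median log2 change of the 8 genes was 1.63, 1.78 and 2.16 in these backgrounds, against -0.03, -6.1e-05 and -0.04 over all genes tested. The ranges of the compared groups did not overlap for 7, 8 and 6 of the 8 genes, where this held for 55.6%, 49.8% and 36.1% of all genes.

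**Figure D1:**
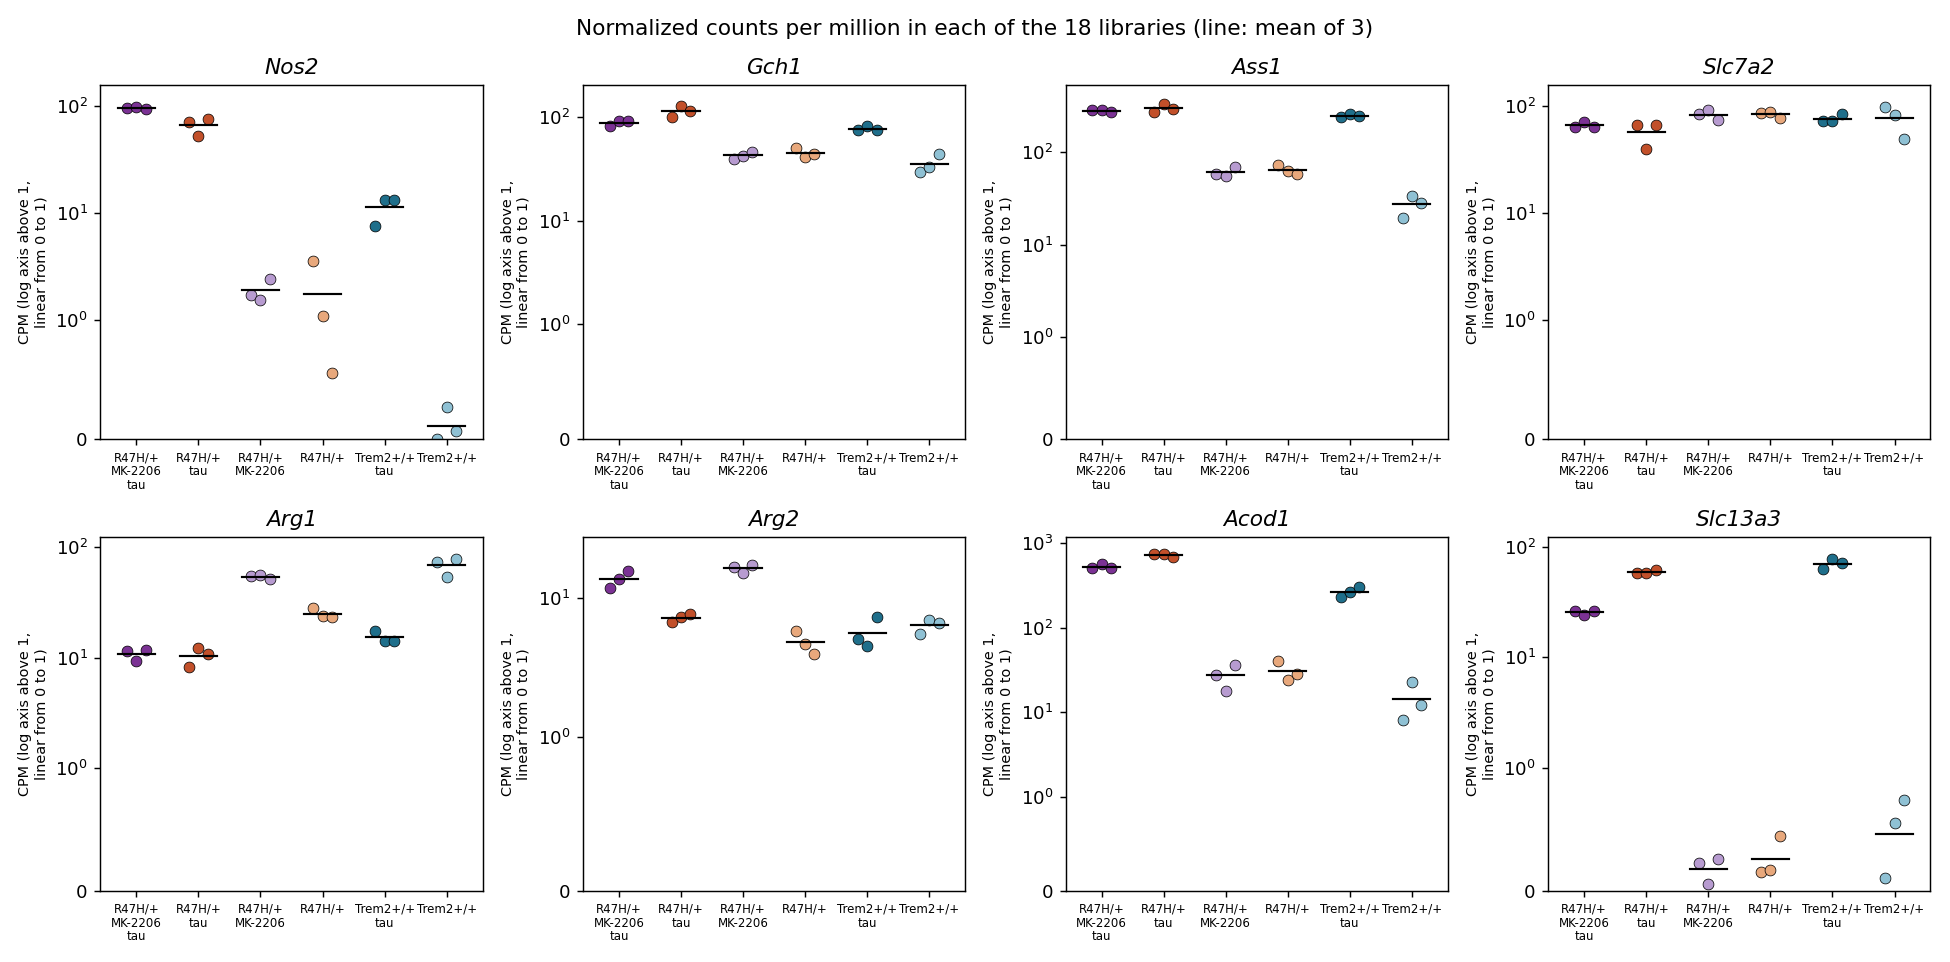
Level of each of the 8 genes in CPM (y axis, log above 1 and linear from 0 to 1, a scale per gene) in the 18 libraries by group (x axis), with points for libraries and lines for the group mean (n = 3). Nos2 and Acod1 are highest in R47H/+ groups with tau, Slc13a3 is near 0 in every library without tau, Arg1 is lowest with tau, and Arg2 is highest in the 2 groups with MK-2206.

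Nos2, the inducible nitric oxide synthase (ENSMUSG00000020826, GRCm38 chromosome 11, 78920787 to 78960254, plus strand), had very few counts in untreated Trem2+/+ cells. It had 95.7, 98.9 and 94.5 CPM in R47H/+ cells with MK-2206 and tau, against 1.71, 1.57 and 2.44 CPM with MK-2206 alone. R47H/+ cells with tau had 70.7, 52.5 and 75.4 CPM, against 3.60, 1.11 and 0.558 CPM in R47H/+ cells without tau. Trem2+/+ cells with tau had 7.65, 13.3 and 13.2 CPM, against 0, 0.275 and 0.0675 CPM without tau, the last on 7 counts in all 3 libraries together. Every library with tau was above every library without it, and the 3 groups with tau did not overlap each other.

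The log2 change of Nos2 with tau was 5.65 (SE 0.468) in R47H/+ cells with MK-2206, 5.21 (SE 0.463) in R47H/+ cells and 6.44 (SE 0.655) in Trem2+/+ cells, and all 3 passed. Since few counts stood in the denominator, the Trem2+/+ value was 8.29 without Trem2+/+ replicate 2 and 5.85 without replicate 1, and the R47H/+ value was 6.31 without R47H/+ replicate 1. Between genotypes, Nos2 was higher in R47H/+ cells both with tau (2.54, SE 0.391) and without it (3.77, SE 0.777). The change without tau was 2.67 without R47H/+ replicate 1 and 5.62 without Trem2+/+ replicate 2, and it was not called in a fit of these 2 groups alone. With MK-2206 against none the change did not pass, at 0.54 (SE 0.364) with tau, where the ranges did not overlap, and 0.10 (SE 0.491) without tau.

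Gch1 encodes GTP cyclohydrolase, the first and rate-limiting enzyme of tetrahydrobiopterin synthesis (ENSMUSG00000037580, chromosome 14, 47153895 to 47189413, minus strand). It had 82.0, 90.8 and 91.4 CPM in R47H/+ cells with MK-2206 and tau, against 39.5, 42.2 and 46.4 CPM with MK-2206 alone. R47H/+ cells had 99.7, 127.9 and 114 CPM with tau, against 50.1, 41.4 and 44.5 CPM without. Trem2+/+ cells had 74.4, 82.2 and 75.9 CPM with tau, against 29.4, 33.2 and 44.3 CPM without. The groups with tau lay above those without in every background, and R47H/+ with tau lay above the other 5 groups.

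The log2 change of Gch1 with tau was 1.04 (SE 0.142) in R47H/+ cells with MK-2206, 1.33 (SE 0.142) in R47H/+ cells and 1.12 (SE 0.142) in Trem2+/+ cells. With tau it was higher in R47H/+ than in Trem2+/+ cells by 0.56 (SE 0.140). That call was lost without Trem2+/+ with tau replicate 1 (0.53), without its replicate 3 (0.54) and without R47H/+ with tau replicate 2 (0.47). Without tau the genotypes differed by 0.35 (SE 0.141), which did not pass, and by 0.53 without the pair of length-shifted libraries, which did. MK-2206 with tau gave -0.37 (SE 0.140) against tau alone, not called, although the ranges did not overlap, and -0.28, called, without the length-shifted libraries.

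Ass1 encodes argininosuccinate synthase, which with argininosuccinate lyase rebuilds arginine from citrulline, the by-product of nitric oxide synthesis (ENSMUSG00000076441, chromosome 2, 31470207 to 31520672, plus strand). It had 287, 283 and 276 CPM in R47H/+ cells with MK-2206 and tau, against 58.1, 54.8 and 68.8 CPM with MK-2206 alone. R47H/+ cells had 275, 335 and 291 CPM with tau, against 72.4, 62.8 and 57.5 CPM without. Trem2+/+ cells had 239.7, 262 and 247 CPM with tau, against 19.4, 33.9 and 28.3 CPM without. The Trem2+/+ group was the lowest without tau and, with tau, lay below both R47H/+ groups.

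Tau changed Ass1 by 2.22 (SE 0.166) in R47H/+ cells with MK-2206, by 2.23 (SE 0.166) in R47H/+ cells and by 3.20 (SE 0.174) in Trem2+/+ cells. The difference between the R47H/+ and Trem2+/+ responses was -0.97 (SE 0.227) and passed the threshold. It was not called in a fit of these 4 groups alone, without R47H/+ replicate 1 (-0.88) or without Trem2+/+ with tau replicate 2 (-0.93). The genotypes differed by 1.24 (SE 0.163) without tau, which passed, and by 0.27 with tau, which did not.

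Slc7a2 encodes the cationic amino acid transporter CAT2, which brings arginine into cells (ENSMUSG00000031596, chromosome 8, 40862396 to 40922308, plus strand). It varied least of the 8 genes, with a range of group means of 0.59 on the log2 CPM scale against 8.94 for Nos2. It had 63.3, 71.0 and 63.6 CPM in R47H/+ cells with MK-2206 and tau, against 84.4, 92.2 and 73.4 CPM with MK-2206 alone. R47H/+ cells had 66.1, 39.9 and 65.9 CPM with tau, against 85.8, 88.6 and 77.6 CPM without. Trem2+/+ cells had 72.1, 72.1 and 83.5 CPM with tau, against 98.5, 82.4 and 49.0 CPM without.

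The lowest Slc7a2 values, 39.9 and 49.0 CPM, were those of the 2 length-shifted libraries, and at 9135 bases Slc7a2 is the longest of the 8 genes. No comparison of Slc7a2 passed over all 18 libraries with the count filter. With no filter, tau in R47H/+ cells gave -0.58, called. That change was also called without Trem2+/+ replicate 1 (-0.55) and without Trem2+/+ replicate 3 (-0.54). In a fit of the compared groups alone, Slc7a2 was called lower with tau in R47H/+ cells with MK-2206 (-0.32). Without the length-shifted libraries it was called lower with tau in R47H/+ cells with MK-2206 (-0.35), in R47H/+ cells (-0.36) and in Trem2+/+ cells (-0.27).

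**Figure D2:**
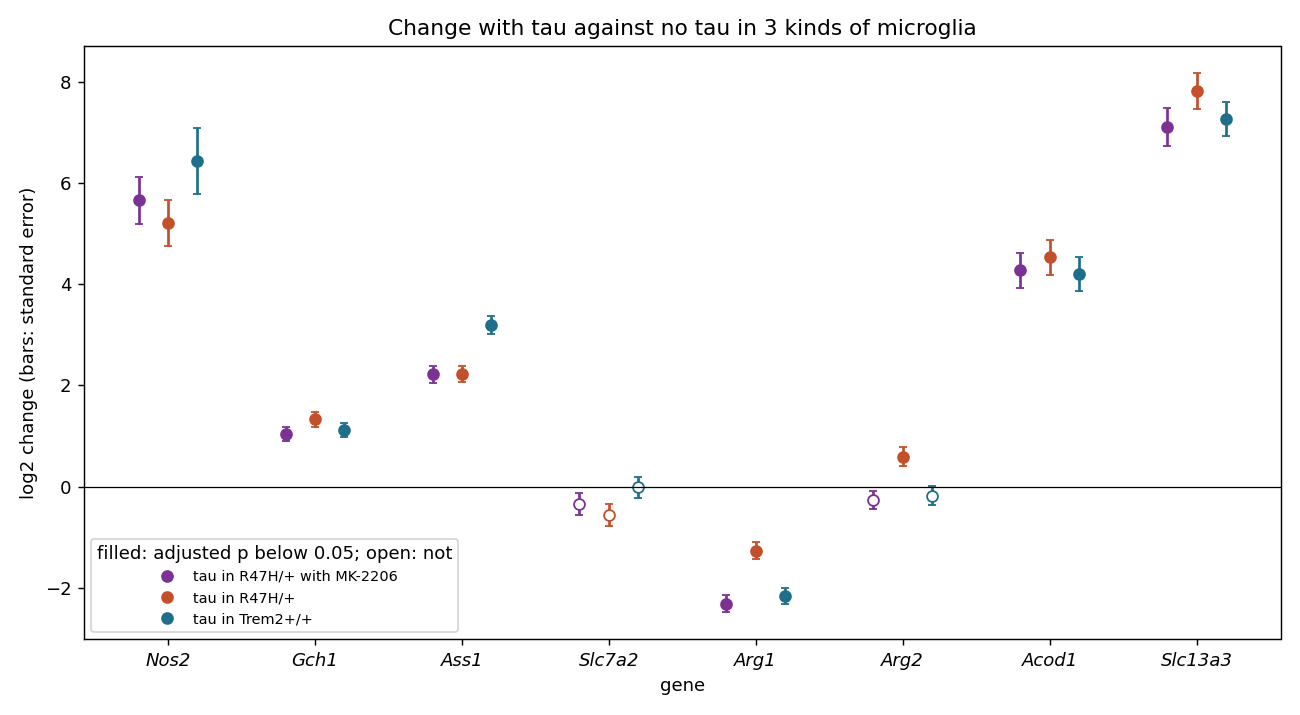
Log2 change with tau against no tau (y axis) for each of the 8 genes (x axis) in R47H/+ cells with MK-2206, R47H/+ cells and Trem2+/+ cells, as points with standard errors, filled where the adjusted p was below 0.05. Slc13a3 and Nos2 lie highest, Arg1 is below 0 in all 3 backgrounds, and Slc7a2 is called in none.

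The arginases moved differently from the nitric oxide genes and from each other. Arg1, the cytosolic arginase and a usual marker of alternative activation (ENSMUSG00000019987, chromosome 10, 24915221 to 24927484, minus strand), had 11.5, 9.28 and 11.6 CPM in R47H/+ cells with MK-2206 and tau, against 54.3, 55.3 and 51.7 CPM with MK-2206 alone. R47H/+ cells had 8.28, 12.3 and 10.7 CPM with tau, against 27.8, 24.0 and 23.3 CPM without. Trem2+/+ cells had 17.3, 14.2 and 14.3 CPM with tau, against 72.9, 53.8 and 77.5 CPM without. All libraries with tau were below all without it, and R47H/+ was the lowest of the 3 groups without tau.

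Arg1 fell with tau by 2.31 (SE 0.167) on the log2 scale in R47H/+ cells with MK-2206, by 1.26 (SE 0.164) in R47H/+ cells and by 2.16 (SE 0.164) in Trem2+/+ cells. The fall in R47H/+ cells was smaller than in Trem2+/+ cells, with a difference of responses of 0.89 (SE 0.227) that passed. That call was lost in a fit of the 4 groups alone, with no count filter, and without any one of Trem2+/+ with tau replicates 2 and 3 (0.84 and 0.85), R47H/+ replicates 2 and 3 (0.87 and 0.84) and R47H/+ with tau replicates 2 and 3 (0.76 and 0.89). Ass1 and Arg1 were the 2 of 8 genes called for this difference, 1 lower and 1 higher, where 5.37% of all genes were called, 3.32% lower and 2.05% higher.

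Without tau, Arg1 was lower in R47H/+ than in Trem2+/+ cells (-1.44, SE 0.160) and higher in R47H/+ cells with MK-2206 than without (1.10, SE 0.159). The R47H/+ cells with MK-2206 overlapped the range of untreated Trem2+/+ cells. With tau, MK-2206 gave a change of 0.05 (SE 0.166), not called, and R47H/+ cells were lower than Trem2+/+ cells by a log2 change of -0.55 (SE 0.164). This last call sat at the threshold: it was lost under 4 of the 6 other settings and in 15 of the 18 fits that each left out 1 library, with values from -0.68 to -0.41. The difference between the tau responses with and without MK-2206 was -1.05 (SE 0.229), not called, but it was called by DESeq2 (-1.04), in a fit of the 4 groups alone and without the length-shifted libraries (-0.91).

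Arg2 encodes the mitochondrial arginase (ENSMUSG00000021125, chromosome 12, 79130777 to 79156301, plus strand) and was highest with MK-2206. It had 11.8, 13.6 and 15.6 CPM in R47H/+ cells with MK-2206 and tau, against 6.63, 7.23 and 7.66 CPM with tau alone. R47H/+ cells with MK-2206 had 16.7, 15.1 and 17.2 CPM, against 5.71, 4.68 and 3.91 CPM in R47H/+ cells alone. Trem2+/+ cells had 5.07, 4.48 and 7.22 CPM with tau, against 5.46, 6.92 and 6.55 CPM without. The groups with MK-2206 lay above all 12 libraries without it.

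The log2 change of Arg2 with MK-2206 was 0.93 (SE 0.181) in cells with tau and 1.77 (SE 0.186) in cells without tau, and both passed. The first was lost without R47H/+ with MK-2206 and tau replicate 3 (0.82). With tau it was higher in R47H/+ cells by 0.59 (SE 0.188), a call lost with no count filter (0.56) and without R47H/+ replicate 2 or 3 (0.58 and 0.46) or R47H/+ with tau replicate 2 or 3 (0.58 and 0.55). It was not called with tau in R47H/+ cells with MK-2206 (-0.26) or in Trem2+/+ cells (-0.18), nor between genotypes (0.36 with tau and -0.40 without). The end of Arg2 overlaps Vti1b on the other strand by 285 bases, and use of strand in the counting is not given in the sources used here; Vti1b was not called in any of the 7 pairwise comparisons. Its log2 change was 0.12 (SE 0.324) with MK-2206 without tau and -0.49 (SE 0.325) with MK-2206 and tau, where Arg2 was higher. It was 0.56 (SE 0.325) with tau in R47H/+ cells, close to the 0.59 of Arg2, and -0.05 and -0.54 with tau in R47H/+ cells with MK-2206 and in Trem2+/+ cells. Between genotypes it was 0.42 with tau and -0.68 without, the same signs as Arg2. Its part in the Arg2 counts was not tested.

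Per kilobase of deposited gene length, Arg1 was below Arg2 in all 3 R47H/+ libraries with MK-2206 and tau and in 2 of 3 R47H/+ libraries with tau, and above it in the other 13 libraries. The ratio of Arg1 to Arg2 was 0.627, 0.437 and 0.477 in R47H/+ cells with MK-2206 and tau, and 2.09, 2.34 and 1.93 with MK-2206 alone. It was 0.800, 1.09 and 0.894 in R47H/+ cells with tau, and 3.12, 3.28 and 3.83 without. In Trem2+/+ cells it was 2.18, 2.03 and 1.27 with tau, and 8.56, 4.98 and 7.59 without. The ratio of Nos2 to Arg1, also per kilobase, was 4.21, 5.38 and 4.11 in R47H/+ cells with MK-2206 and tau, 4.31, 2.16 and 3.56 in R47H/+ cells with tau and 0.224, 0.472 and 0.467 in Trem2+/+ cells with tau. It was at most 0.0653 in any library without tau.

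**Figure D3:**
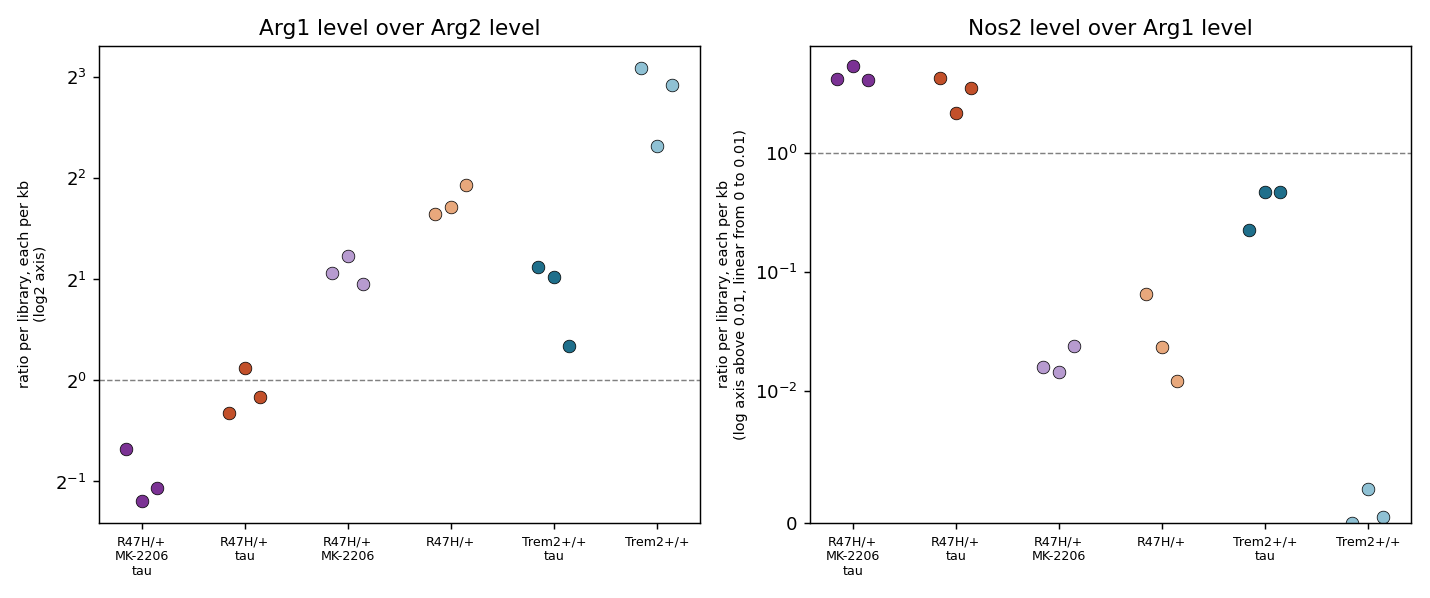
Ratio of Arg1 to Arg2 and of Nos2 to Arg1, each per kilobase of gene length (y axes, log2 on the left, log10 above 0.01 and linear below it on the right), in each library by group (x axis), with a dashed line at 1. Nos2 exceeds Arg1 in all 6 R47H/+ libraries with tau and in no Trem2+/+ library, and 1 Trem2+/+ library with no Nos2 count is at 0.

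Acod1 encodes cis-aconitate decarboxylase, the enzyme that makes itaconate (ENSMUSG00000022126, chromosome 14, 103046977 to 103056573, plus strand), and it reached the highest level of the 8 genes. It had 505, 572 and 501 CPM in R47H/+ cells with MK-2206 and tau, against 27.2, 17.8 and 36.7 CPM with MK-2206 alone. R47H/+ cells had 741, 733 and 685 CPM with tau, against 40.6, 24.0 and 28.7 CPM without. Trem2+/+ cells had 232, 262 and 300.3 CPM with tau, against 8.11, 22.8 and 12.2 CPM without. The 3 groups with tau did not overlap each other, and R47H/+ with tau was the highest.

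The log2 change of Acod1 with tau was 4.27 (SE 0.338) in R47H/+ cells with MK-2206, 4.53 (SE 0.342) in R47H/+ cells and 4.20 (SE 0.339) in Trem2+/+ cells. R47H/+ cells were higher than Trem2+/+ cells with tau (1.44, SE 0.30) and without it (1.11, SE 0.308). The second call was lost in a fit of these 2 groups alone, without Trem2+/+ replicate 1 (0.82) and without R47H/+ replicate 1 (0.87). MK-2206 gave -0.45 (SE 0.295) with tau, where the ranges did not overlap, and -0.19 (SE 0.302) without tau, and neither passed.

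Slc13a3 encodes the sodium-dependent dicarboxylate transporter NaDC3, which carries succinate and related dicarboxylates and has been reported to carry itaconate (ENSMUSG00000018459, chromosome 2, 165405028 to 165473230, minus strand). It had 26.4, 24.2 and 26.3 CPM in R47H/+ cells with MK-2206 and tau, against 0.228, 0.0540 and 0.259 CPM with MK-2206 alone. R47H/+ cells had 58.1, 57.9 and 61.8 CPM with tau, against 0.154, 0.175 and 0.447 CPM without. Trem2+/+ cells had 62.7, 76.9 and 70.6 CPM with tau, against 0.104, 0.550 and 0.742 CPM without. The levels without tau rested on 10, 14 and 25 counts per group, and the 3 groups with tau did not overlap each other.

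The log2 change of Slc13a3 with tau was 7.10 (SE 0.377) in R47H/+ cells with MK-2206, 7.81 (SE 0.361) in R47H/+ cells and 7.26 (SE 0.338) in Trem2+/+ cells. The R47H/+ value was 8.44 without R47H/+ replicate 3. Unlike Nos2 and Acod1 it was not called between genotypes, at -0.24 with tau and -0.79 (SE 0.528) without. Without Trem2+/+ replicate 1 the value between untreated genotypes was -1.28, and called. With tau it was lower with MK-2206 than without (-1.21, SE 0.231). That call was lost without any one of the 3 libraries with MK-2206 and tau, at -1.23 to -1.17, and kept in the other 15 fits that left out 1 library.

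Between genotypes, R47H/+ cells with tau had 3 of the 8 genes called higher (Nos2, Gch1 and Acod1) and 1 lower (Arg1) than Trem2+/+ cells with tau, where 9.5% of all genes were called, 5.25% higher and 4.24% lower; ranges did not overlap for 7 of the 8 and for 33.7% of genes. Without tau 3 were called higher (Nos2, Ass1 and Acod1) and 1 lower (Arg1), where 15.1% of genes were called, 8.22% higher and 6.83% lower; ranges did not overlap for 4 of the 8 and for 31.4% of genes. A fit of the 2 groups without tau alone left 2 of these 4 calls, Ass1 and Arg1. The comparisons with tau and without it use separate libraries, while each genotype comparison shares its libraries with the tau comparisons above.

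With MK-2206 and tau against tau alone, 1 of 8 was called higher (Arg2) and 1 lower (Slc13a3), where 3.04% of genes were called, 1.64% higher and 1.4% lower; ranges did not overlap for 5 of the 8 and for 27.7% of genes. With MK-2206 against none in R47H/+ cells without tau, 2 were called higher (Arg1 and Arg2) and 0 lower, where 2.55% of genes were called, 1.19% higher and 1.36% lower; ranges did not overlap for 2 of the 8 and for 32.6% of genes. For the difference between the tau responses with and without MK-2206, 0 of 8 were called by edgeR and 1 by DESeq2, where edgeR called 0.377% of genes, 0.181% higher and 0.196% lower.

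**Figure D4:**
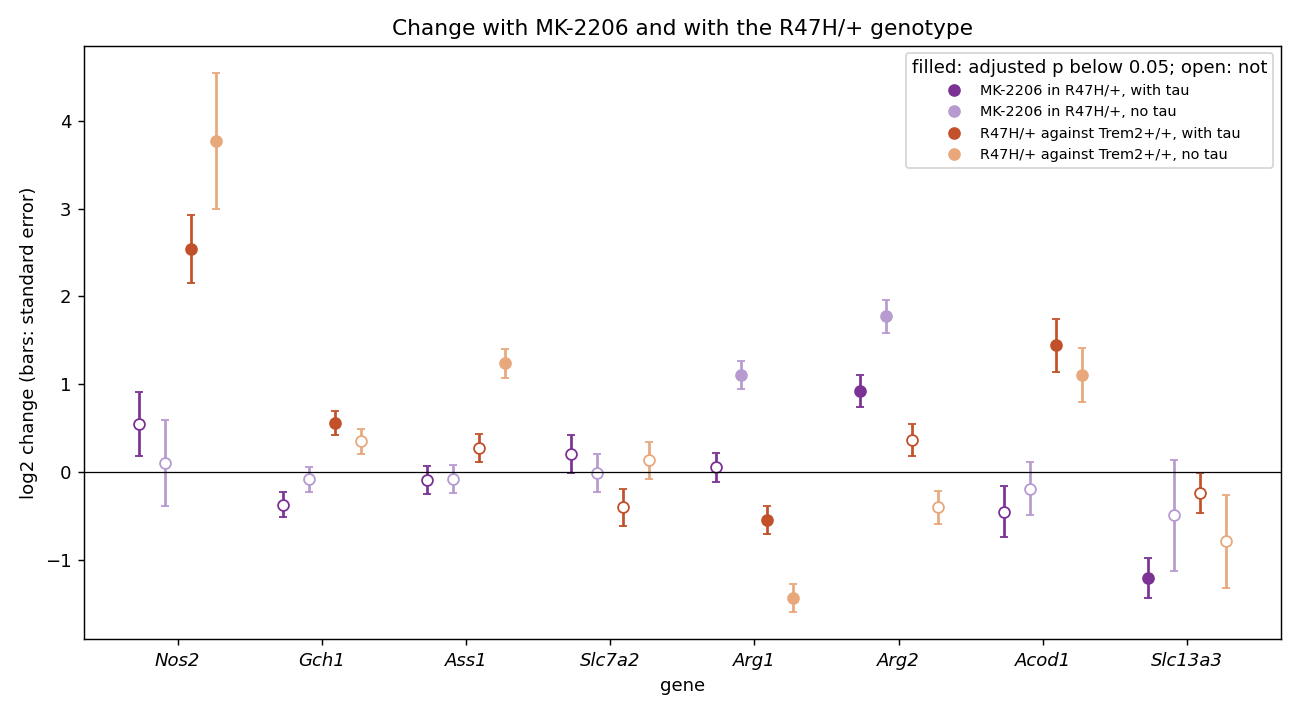
Log2 change between genotypes and with MK-2206 (y axis), with and without tau, for the 8 genes (x axis), as points with standard errors, filled where the adjusted p was below 0.05. Nos2 and Acod1 are above 0 between genotypes in both states, and Arg2 is above 0 with MK-2206 in both states.

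Compared per kilobase, the order of the 8 genes differed between groups. In R47H/+ cells with tau, Acod1 averaged 274 ± 11.6 CPM per kb (SD, n = 3), followed by Ass1 at 124 ± 12.9, Gch1 at 18.2 ± 2.26, Nos2 at 15.004 ± 2.74 and Slc13a3 at 11.4 ± 0.417. In Trem2+/+ cells without tau, Arg1 was first at 30.5 ± 5.63 CPM per kb and Ass1 next at 11.3 ± 3.02, while Nos2 and Slc13a3 were last at 0.0259 ± 0.0325 and 0.0893 ± 0.0628. Over the 6 group means, Nos2, Slc13a3 and Acod1 had log2 ranges of 8.94, 7.998 and 5.76. Among the 8, the root mean square difference between profiles was smallest for Arg2 and Slc7a2, at 0.70 log2 units. It was largest for Arg1 and Slc13a3, at 4.51. Between them were Gch1 and Ass1 at 0.76, Ass1 and Acod1 at 0.99 and Nos2 and Acod1 at 1.12. These differences are not scaled to the range of a gene.

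The genes whose centred log2 profile over the 6 group means was closest to a member's were sought among 9868 genes. Nearest Nos2 was the chemokine Ccl5, at a root mean square difference of 0.51, with 3625, 3142 and 1277 CPM with tau in the order of the groups above (R47H/+ with MK-2206, R47H/+, Trem2+/+) and 96.9, 79.98 and 10.97 CPM without. Nearest Acod1 were the chemokine Cxcl13 (0.26), the adhesion molecule Vcam1 (0.30) and the chemokine Cxcl10 (0.34), and nearest Gch1 was the proteasome activator subunit Psme1 (0.028). Ass1 lay nearest to Timeless (0.19), Arg1 to Adssl1 (0.18), Arg2 to Gprc5b (0.33) and Slc7a2 to Rai1 (0.024). Nearest Slc13a3 was Susd2, at 0.96. It had 34.2, 18.5 and 33.0 CPM with tau in the same order and 0.536, 0.315 and 0.407 CPM without. The difference is not scaled to a gene's range over the 6 means, which was 7.998 for Slc13a3 and 1.77 for Arg2. Distances of different members are therefore not compared. These are descriptions over 6 means that share libraries, and the search was not repeated without the length-shifted libraries. In the groups that hold those libraries, Trem2+/+ alone and R47H/+ with tau, some of the nearest genes spread widely. Psme1 averaged 179 (SD 118) and 517 (SD 189) CPM there, and Rai1 36.2 (SD 17.7) and 26.6 (SD 9.53) CPM.

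Other genes of the same pathways were described from 5 lists. Of 10 genes that make, use or limit nitric oxide, Nos1, Nos3, Gucy1a1 and Gucy1b1, 2 synthases and the subunits of the nitric oxide receptor, failed the count filter with 13 to 57 counts over all libraries. Of the 6 tested, 0 were called higher and 1 lower with tau in R47H/+ cells with MK-2206, 0 either way in R47H/+ cells and 1 each way in Trem2+/+ cells, with median log2 changes of -0.34, -0.51 and -0.74. Without the length-shifted libraries the counts were 1, 0 and 1 higher and 1, 3 and 3 lower, but the share of all genes called then also was larger, at 48%, 42.8% and 41.4%, against 25.6%, 27.6% and 26.5% over all 18 libraries; the counts of the other 4 lists are to be read against the same shares. Ddah2, a dimethylarginine dimethylaminohydrolase, was the lower one, at -2.25 (adjusted p = 0.00473) with MK-2206 and -2.45 (adjusted p = 0.00133) in Trem2+/+ cells. The second was -1.49 without the length-shifted libraries, 1 of which held 17.2 CPM against 3.69 and 4.86 CPM in the other Trem2+/+ libraries.

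Of the 7 tetrahydrobiopterin genes beside Gch1, Pcbd1 and Gchfr failed the filter with 3 and 24 counts over all libraries. Of the 5 tested, 0, 0 and 2 were called lower with tau and 1, 1 and 1 higher. The order is R47H/+ cells with MK-2206, R47H/+ cells and Trem2+/+ cells. Without the length-shifted libraries, 3, 1 and 1 were called lower and 2, 1 and 2 higher. In that fit, Pts was called higher with tau in R47H/+ cells with MK-2206 (0.44) and in Trem2+/+ cells (0.47). It was not called in R47H/+ cells (0.23). Qdpr, which regenerates the cofactor, and Spr, which completes it, were called lower with tau in Trem2+/+ cells, at -0.99 and -0.92, and lower in R47H/+ than Trem2+/+ cells without tau, at -1.04 and -1.05. Without the length-shifted libraries the values were -0.38 and -0.31 with tau, the second not called, and -0.42 and -0.43 between genotypes; Qdpr then was also called lower with tau in R47H/+ cells (-0.50), and both were in R47H/+ cells with MK-2206, Qdpr at -0.53 and Spr at -0.54. The difference between the genotypes' responses to tau was not called for either gene.

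Of the other carriers of cationic amino acids, Slc7a3 failed the filter with 73 counts and 4 were tested. Of these, 3, 2 and 2 were called higher with tau in R47H/+ cells with MK-2206, R47H/+ cells and Trem2+/+ cells, with 0, 0 and 1 lower. Median log2 changes were 0.62, 0.46 and 0.67. Without the length-shifted libraries 3 were called higher in each background, and 1, 0 and 1 lower. The lower one was Slc7a6, at -0.38 in R47H/+ cells with MK-2206 and -0.68 in Trem2+/+ cells. Slc7a7, a light chain that exchanges arginine across the membrane, was higher by 0.86, 0.83 and 1.08 in these backgrounds (adjusted p = 8.84e-05, 0.000133 and 9.42e-06). Its level was 94.8, 94.8 and 90.5 CPM in R47H/+ cells with tau, against 54.4, 52.9 and 50.5 CPM without. Slc7a1, the constitutive arginine transporter CAT1, was higher by 0.99 with MK-2206 (adjusted p = 0.0156) and by 1.32 in Trem2+/+ cells (adjusted p = 0.0025). It was not called in R47H/+ cells (0.29), where the length-shifted library was lowest at 34.4 CPM, and was called there without the shifted libraries (0.50, adjusted p = 4.19e-05).

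Of 24 genes of arginine, urea cycle, polyamine and proline metabolism, 20 were tested. With tau 3, 4 and 3 were called higher and 3, 2 and 5 lower in R47H/+ cells with MK-2206, R47H/+ cells and Trem2+/+ cells, with median log2 changes of -0.17, -0.03 and -0.32. Without the length-shifted libraries 4, 5 and 3 were called higher and 8, 5 and 6 lower. Between genotypes without tau, 2 were called higher and 7 lower in R47H/+ cells, where 15.1% of all genes were called, and 5 higher and 8 lower without the length-shifted libraries, where 28.9% were. Cps1 and Otc, the mitochondrial start of the urea cycle, had 0 and 3 counts over all libraries, and Agmat and Pycr1 failed the filter with 0 and 83. Gatm, which uses arginine to make the creatine precursor, was higher with tau by 0.97, 0.53 and 0.89 (adjusted p = 3.84e-05, 0.00703 and 0.000102). It was higher in R47H/+ than in Trem2+/+ cells by 0.81 with tau and 1.18 without, and lower with MK-2206 in cells without tau (-0.69, adjusted p = 0.00977), with 35.8, 36.7 and 31.2 CPM against 54.1, 61.5 and 51.8 CPM in R47H/+ cells alone.

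Aldh18a1, the first enzyme of proline synthesis from glutamate, was higher with tau by 1.10, 0.88 and 1.49 (adjusted p = 0.00147, 0.00726 and 0.000109). Smox, which oxidises spermine, was called higher with tau in R47H/+ cells (0.73, adjusted p = 4.26e-05) and in Trem2+/+ cells (0.37, adjusted p = 0.0115). Sms, spermine synthase, was lower with tau in Trem2+/+ cells (-1.14, adjusted p = 0.000177), where the 3 libraries with tau held 16.6, 16.2 and 17.7 CPM against 32.6, 27.1 and 52.2 CPM, and not called in R47H/+ cells (0.10). The difference of these 2 responses was 1.24 (adjusted p = 0.00826), and 0.81 (adjusted p = 0.000394) without the length-shifted libraries.

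Of 32 genes of itaconate breakdown, the tricarboxylic acid cycle and dicarboxylate transport, 28 were tested, and 4, 4 and 5 were called higher and 3, 4 and 2 lower with tau in R47H/+ cells with MK-2206, R47H/+ cells and Trem2+/+ cells. Without the length-shifted libraries the counts were 11, 10 and 14 higher and 7, 7 and 4 lower. Over all 18 libraries the 7, 8 and 7 genes called of 28 were near the share of all genes (25.6%, 27.6% and 26.5%), and without the shifted libraries the shares of all genes were 48%, 42.8% and 41.4%. The medians over all 18 libraries were 0.11, 0.21 and -0.10. Slc25a10, the mitochondrial dicarboxylate carrier, was higher by 1.22, 1.19 and 0.84 (adjusted p = 4.01e-07, 6.46e-07 and 2.26e-05). Idh1, the cytosolic isocitrate dehydrogenase, was lower, at -0.91, -0.73 and -0.63 (adjusted p = 4.63e-05, 0.000412 and 0.00148), and its mitochondrial NADP counterpart Idh2 was at -0.82, -0.68 and -0.64 (adjusted p = 0.000127, 0.00073 and 0.00111). Both were also lower in R47H/+ than in Trem2+/+ cells, Idh1 at -0.71 with tau and -0.61 without, Idh2 at -0.46 and -0.42. Without the length-shifted libraries, the values between genotypes without tau were smaller, at -0.40 for Idh1 and -0.27 for Idh2. The tau changes in Trem2+/+ cells then were -0.43 and -0.50, and all of these were called. Idh3a, a subunit of the NAD-dependent enzyme, was the 1 gene of this list called with MK-2206 and tau against tau alone (-0.66, adjusted p = 0.0164), at 13.7, 16.2 and 14.5 CPM against 23.8, 26.0 and 20.4 CPM. The carriers Slc13a4 and Slc13a5, relatives of Slc13a3, had 18 and 4 counts over all libraries, and the receptors Oxgr1 and Sucnr1 had 0 and 1.

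**Figure D5:**
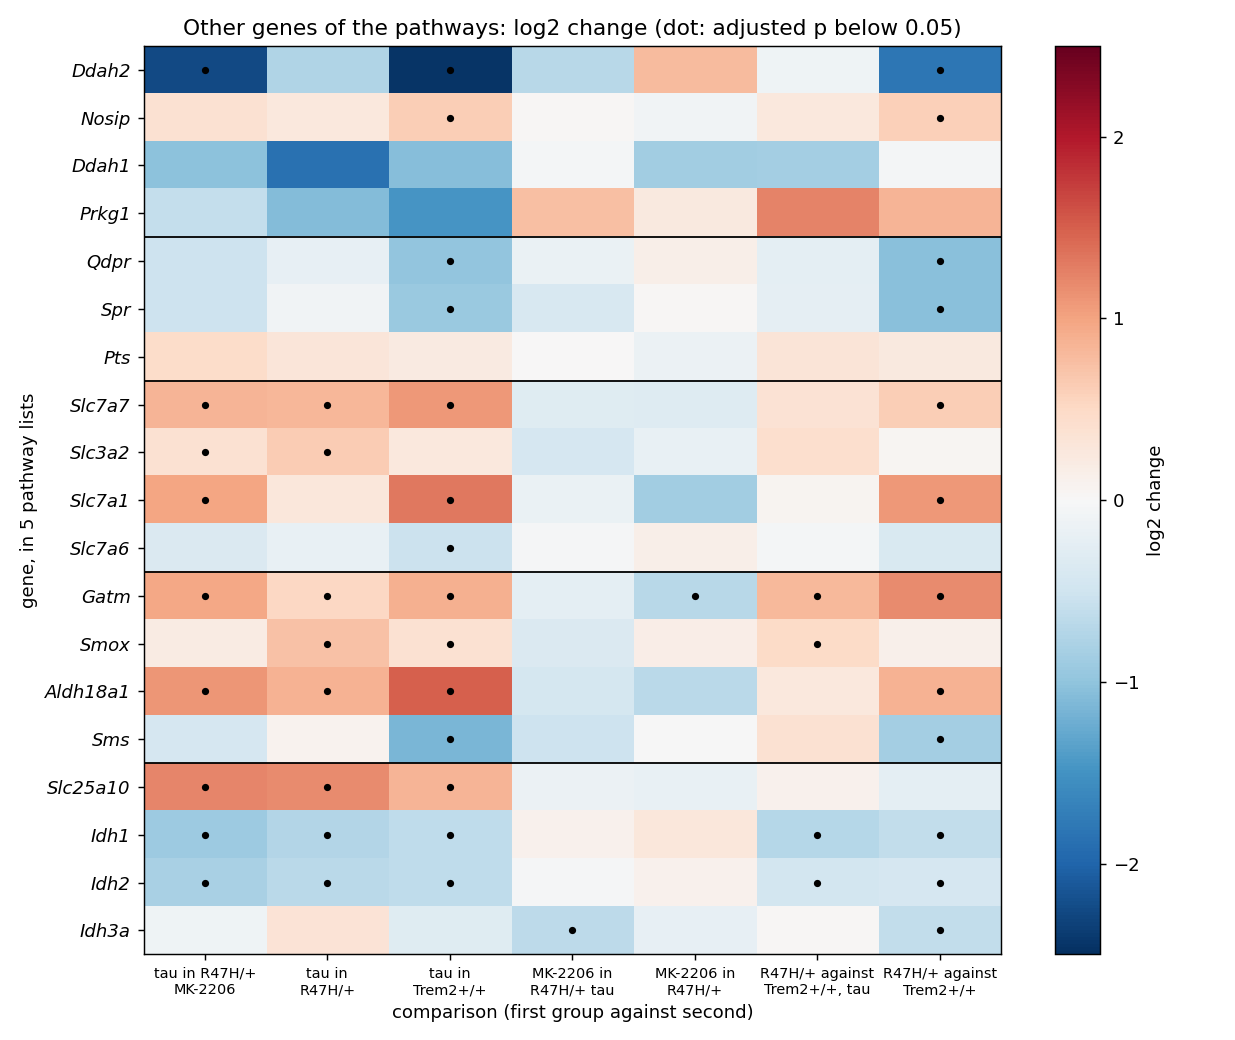
Log2 change (colour, red higher and blue lower in the first group) of 19 other genes of the pathways (rows, in 5 lists) in 7 comparisons (columns), with a dot where the adjusted p was below 0.05. Slc7a7, Gatm, Aldh18a1 and Slc25a10 are higher with tau in all 3 backgrounds, and Idh1 and Idh2 are lower.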

How the data were processed

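Gene expression was measured in 18 libraries of primary mouse microglia, sequenced in pairs of 150 bases. The authors deposited unnormalized counts of reads for each gene. The submitters' processing notes name STAR, featureCounts and DESeq2 and the build GRCm38 (mm10); versions, settings and use of strand are not given in the sources used here. The deposited columns of other information give gene coordinates and gene length in bases.

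The counts were tested with edgeR 4.0.16 (R 4.3.3). The filter filterByExpr kept 13267 of 54532 genes, TMM set the scaling, and a single quasi-likelihood fit over all libraries held 6 group terms and 12 residual degrees of freedom. The 7 pairwise contrasts and 2 interactions were tested two-sided, with p-values adjusted by Benjamini and Hochberg's method across the genes kept and a threshold of 0.05. SE is the log2 change divided by the root of its F value. CPM used the TMM library sizes; log2 CPM used a prior count of 2. The model was tested on counts simulated from its own fit. These held no length shift, so that test cannot show how the length-shifted libraries act on the calls. Replicate pairs differed beyond counting error (chi-square per gene 3.30 to 262).

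The members and the pathway lists were chosen with earlier results of these data known, as was leaving out the 2 length-shifted libraries. From each list up to 4 genes with the smallest p over the 7 pairwise comparisons are named, with all that failed the filter (1 gene within this rule is not reported here), and of the 3 genes found most like each member the nearest 1 or all 3. Other alternatives were RLE scaling, no filter, DESeq2 1.42.0, the compared groups alone, a replicate block and each library left out.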

Additional observations from a re-analysis of the deposited data

Results flagged for a closer look

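The response of Ass1 to tau differed between genotypes: R47H/+ cells changed by 2.23 and Trem2+/+ cells by 3.20 on the log2 scale, and the test of the difference gave -0.97 and passed the threshold.

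The response of Arg1 also differed: it was -1.26 in R47H/+ cells and -2.16 in Trem2+/+ cells, and the difference, 0.89, passed. Both genes already differed between genotypes without tau, Ass1 by 1.24 and Arg1 by -1.44, and neither difference was called in a fit of the 4 groups alone.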

How the results depend on the processing

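The members called kept the count within 1.5 times of the value given, except as follows. A fit of the compared groups alone called 2 members for R47H/+ against Trem2+/+ and 0 for the genotype and tau interaction, for which no filter called 1. For the MK-2206 and tau interaction, 1 member, Arg1, was called with the groups alone, by DESeq2 and without the length-shifted libraries. With 1 library left out, members called ranged from 2 to 4 for R47H/+ against Trem2+/+ with tau, from 0 to 3 for MK-2206 with tau, from 0 to 2 for genotype and tau and from 0 to 1 for MK-2206 and tau. Counts over all genes moved more. R47H/+ against Trem2+/+ had 1997 genes called, 474 with the groups alone, 3907 without the length-shifted libraries and 1295 to 2975 with 1 library left out. With tau that comparison had 1260, 3141 without the shifted libraries and 629 to 3469. Tau in Trem2+/+ cells had 3519, 1311 alone and 5589 without the shifted libraries. Tau in R47H/+ cells had 3667, 5773 without the shifted libraries and 2686 to 5856, and with MK-2206 3393, 6225 alone and 6475 without the shifted libraries. MK-2206 without tau had 338, 2236 alone, 1878 without the shifted libraries, 553 by DESeq2 and 138 to 857. MK-2206 with tau had 403, 236 with no filter, 249 with the replicate block, 220 alone, 1620 without the shifted libraries, 698 by DESeq2 and 150 to 1729. The genotype and tau interaction had 713, 360 alone, 1610 without the shifted libraries, 1154 by DESeq2 and 471 to 1537. The MK-2206 and tau interaction had 50, 21 with the block, 187 alone, 667 without the shifted libraries, 202 by DESeq2 and 9 to 313. The cause was not tested.

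Signs turned only for values that were not called. Slc7a2 between genotypes was -0.11 without the shifted libraries and -0.13 to 0.35 with 1 library left out; with tau in Trem2+/+ cells it was 0.0072 with the block and -0.29 to 0.20. Gch1 for genotype and tau was -0.067 without the shifted libraries. Ass1 for MK-2206 and tau was 0.0029 with RLE, 0.0012 with the block, 0.077 without the shifted libraries, 0.0025 by DESeq2 and -0.10 to 0.10. With 1 library left out, MK-2206 without tau gave -0.32 to 1.19 for Nos2, -0.19 to 0.0096 for Ass1, -0.091 to 0.071 for Slc7a2, -0.47 to 0.049 for Acod1 and -0.86 to 0.13 for Slc13a3, and with tau -0.087 to 0.19 for Arg1. Acod1 for genotype and tau was -0.18 to 0.63; for MK-2206 and tau Nos2 was -0.65 to 0.86 and Acod1 -0.50 to 0.014. RLE scaling moved the median of all genes by less than 0.1. Libraries with the same replicate number did not deviate together (45 pairs, r -0.63 to 0.49, median -0.0015). For 4 of 18 libraries, the mean r with libraries of the same number exceeded the mean r with those of other numbers. The replicate block is therefore only an alternative. That block ended the Arg1 call between genotypes with tau (-0.54). Depth limits Nos2 and Slc13a3 without tau, which rest on 7 to 106 counts per group.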
